A study of Mus musculus with 15 samples.

Results

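Ebi3 and 4 genes that encode receptors of the interleukin 27, interleukin 6 and interleukin 12 cytokines (Il27ra, Il6st, Il6ra and Il12rb1) were followed across HSCs, the hematopoietic stem cells of bone marrow that renew the blood. The 5 genes were taken by symbol from a table of 20696 genes, and all 5 were found. Ebi3 was the member that differed between all 3 groups of libraries: it was lowest in aged controls, higher in the libraries labelled aged Thbs1 knockout and highest in young controls. Il27ra was higher in aged controls than in young controls, a call that was lost in 8 of 15 omissions of 1 library. No difference of Il6st, Il12rb1 or Il6ra passed its test. Under another grouping of the libraries, described below, no difference of Ebi3 or Il27ra was called.

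Cytokines of this family are built from a helical subunit and, in several cases, another subunit shaped like a soluble receptor. Ebi3 is such a receptor-like subunit. It pairs with the product of Il27 to form interleukin 27 and with the product of Il12a to form interleukin 35. Interleukin 27 binds a receptor made of the Il27ra product and gp130, the signal-transducing chain encoded by Il6st, which interleukin 6 also uses after binding the Il6ra product. Il12rb1 encodes the chain shared by the receptors of interleukins 12 and 23. These receptors signal through JAK kinases and STAT factors, which switch on Socs3 and other feedback inhibitors. Ebi3 was named for its induction in B cells infected by Epstein-Barr virus, and dendritic cells and macrophages are its best known sources.

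The HSCs were sorted by flow cytometry from bone marrow, and libraries were made from 2 ng of total RNA with SMART-Seq v4, a kit for small RNA inputs. The 15 libraries fell into 3 groups of 5: aged mice labelled Thbs1 knockout (18 months), aged controls (18 months) and young controls (3 months). No treatment, strain or knockout design is given in the sources used here, and no label says whether each library is a different mouse. The p-values therefore reflect variation among libraries, which may be technical. By the library names, 2 male and 3 female libraries were labelled knockout, 3 male and 2 female were aged controls, and 2 male and 3 female were young controls. Within each group the male libraries carried the lower replicate numbers, so sex cannot be told apart from anything else tied to those numbers.

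Thbs1, which encodes the matrix glycoprotein thrombospondin 1 and is the gene named in the label, had 2.53, 1.69, 17.89, 12.69 and 17.25 FPKM (fragments per kilobase of exon, scaled to the depth of the library) in the libraries labelled knockout, against 0.20, 0.01, 0.62, 8.75 and 4.90 FPKM in aged controls and 0.76, 0.70, 13.38, 2.42 and 3.95 FPKM in young controls. It was therefore not lower in the libraries labelled knockout, and every direction given here is for libraries with that label, not for a measured loss of Thbs1. For 10 of 15 columns, the sample descriptions link a library name to another title than the table does. By the titles in the table, the library names carry the letter A in all young controls, B in all aged controls and C in all libraries labelled knockout. The groups by the descriptions mix these letters. The columns were grouped by the titles in the table, and the values of Ebi3 under the other grouping stand beside its results. Each library held between 16648108 and 28622471 reads in genes. Reads of rRNA-like genes took up to 3.74% of a library, and 2 libraries labelled knockout, replicates 2 and 5, were the highest; the others had at most 1.17%. All 11 HSC markers examined averaged over 1 FPKM in each group, whereas 9 of 10 macrophage and dendritic cell markers were under 1 FPKM in the libraries labelled knockout and in aged controls, as were 8 of 10 in young controls. Markers of other lineages were over 1 FPKM as well. All 6 megakaryocyte and platelet markers were over it in each group. Of 6 erythroid markers, 5 were over it in the libraries labelled knockout and in aged controls, and 6 in young controls. Of 5 measured neutrophil markers, 3 were over it in the libraries labelled knockout and 4 in each control group. Of 6 B cell and plasma cell markers, 2 were over it in each group.

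Ebi3 (ENSMUSG00000003206) lies on the forward strand of GRCm38 chromosome 17, at 55952640 to 55957022, with 1154 exonic bases. Its level was 34.26, 35.31, 20.58, 25.82 and 24.28 FPKM in the libraries labelled aged Thbs1 knockout. The aged controls had 11.79, 12.27, 13.05, 12.03 and 11.61 FPKM. The young controls had 43.18, 51.88, 44.20, 42.42 and 42.79 FPKM. Each of the 3 groups occupied its own range, with no library of one group inside the range of another. The gap between the nearest libraries was 7.53 FPKM between those labelled knockout and aged controls and 7.11 FPKM between those labelled knockout and young controls. Aged controls were the tightest group for this gene, with an SD of 0.561 FPKM, whereas the SD was 6.45 FPKM in the libraries labelled knockout and 3.96 FPKM in young controls.

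In the libraries labelled aged Thbs1 knockout Ebi3 averaged 28.05 FPKM, against 12.15 FPKM in aged controls (n = 5 each). It was higher by 1.12 on the log2(FPKM + 1) scale (SE 0.14, 95% confidence interval 0.83 to 1.41, limma adjusted p = 0.00018), a scale that understates the changes of genes with low FPKM. Aged controls lay lower than young controls, which averaged 44.9 FPKM, by a log2 difference of -1.80 (95% confidence interval -2.09 to -1.51, limma adjusted p = 3.52e-07). By this log2 difference Ebi3 ranked as number 2 from the bottom of the 11345 genes tested. The libraries labelled knockout did not reach the level of young controls: the log2 difference was -0.68 (95% confidence interval -0.97 to -0.39, limma adjusted p = 0.0143). Each of the 3 differences gave an exact two-sided permutation p of 0.00794, the smallest that 5 against 5 libraries allow. The first and the second difference share the aged controls, and the others share a group in the same way.

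Without replicates 2 and 5 of the libraries labelled knockout, which had the most rRNA-like reads, the difference of Ebi3 from aged controls was 1.06 (limma adjusted p = 0.000443). With every library scaled to the same median, the difference from young controls was -0.58 and lost its call (limma adjusted p = 0.0695). When the columns were grouped by the sample descriptions, the differences were -1.10 against aged controls, 0.86 for aged against young controls and -0.24 against young controls, and none was called (limma adjusted p = 0.56, 0.867 and 0.775). RNA of a whole sorted population does not tell fewer cells with Ebi3 RNA apart from less Ebi3 RNA per cell.

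**Figure D1:**
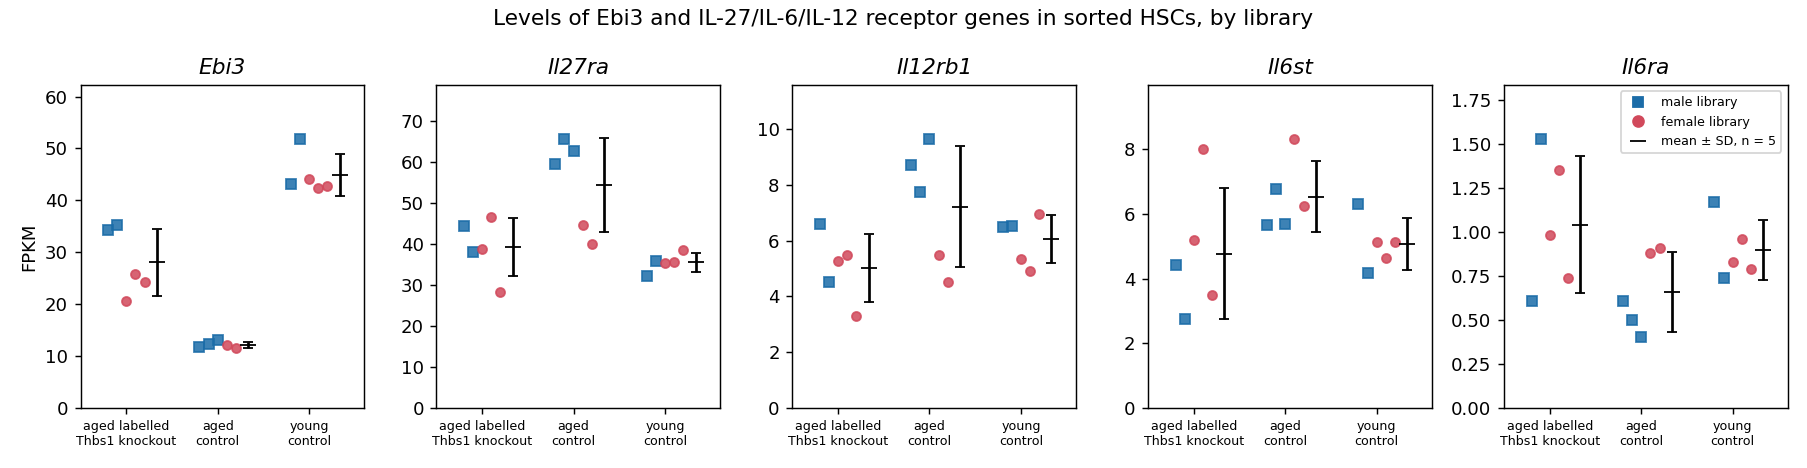
Level in FPKM (linear axis from 0) of Ebi3, Il27ra, Il12rb1, Il6st and Il6ra in each library, with libraries labelled aged Thbs1 knockout on the left, aged controls in the middle and young controls on the right. Squares are male and circles female libraries, and the bars give the mean ± SD of 5 libraries. For Ebi3 the 3 groups do not overlap, with aged controls between 11.61 and 13.05 FPKM, whereas for Il12rb1, Il6st and Il6ra the groups overlap.

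Ebi3 RNA came from 465 to 827 reads per library labelled knockout, 246 to 355 per aged control and 924 to 1475 per young control, worked back from the FPKM and the exonic length. Of its exonic bases, 270 (23.4%) are also exonic in Gm16712, an antisense gene. Gm16712 had 0.66, 0.97, 2.30, 1.74 and 0.44 FPKM in the libraries labelled knockout, 0.37, 0.61, 0.44, 0.58 and 0.28 FPKM in aged controls and 2.37, 2.38, 2.10, 2.32 and 2.01 FPKM in young controls. Its reads, 13 to 135 per library, were a small number beside those of Ebi3. No source used here says whether counting was by strand. Reads of the 2 genes over the shared bases therefore cannot be told apart.

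The promoters of Ebi3 and Il6st are shown because Ebi3 is the ligand gene that differed between all groups and Il6st encodes the receptor chain that interleukin 27 shares with interleukin 6. Each runs from 250 bases before to 50 bases after the RefSeq start site on GRCm38.p6, 5′ to 3′ on the forward strand, at chr17:55952373-55952672 for Ebi3 and chr13:112463820-112464119 for Il6st. Capitals mark matches to the motifs that were searched on both strands.
Ebi3: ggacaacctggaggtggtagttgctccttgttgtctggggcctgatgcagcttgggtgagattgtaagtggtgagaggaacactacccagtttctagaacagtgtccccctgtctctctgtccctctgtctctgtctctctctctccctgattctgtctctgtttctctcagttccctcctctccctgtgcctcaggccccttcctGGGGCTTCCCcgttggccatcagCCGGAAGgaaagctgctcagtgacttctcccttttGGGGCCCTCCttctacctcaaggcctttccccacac
Il6st: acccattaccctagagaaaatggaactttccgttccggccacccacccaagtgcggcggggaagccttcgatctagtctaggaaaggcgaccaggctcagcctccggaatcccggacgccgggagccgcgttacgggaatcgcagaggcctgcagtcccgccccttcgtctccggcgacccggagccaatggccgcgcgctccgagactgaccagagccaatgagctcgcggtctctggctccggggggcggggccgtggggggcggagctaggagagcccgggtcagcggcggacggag
The Ebi3 promoter held 2 CG dinucleotides and the Il6st promoter 33, against a median of 7 over 32851 mouse promoters of the same length. In the Ebi3 promoter the ETS core CCGGAAG lay 21 to 15 bases before the start, and the NF-kB consensus matched at 44 to 35 bases before it (GGGGCTTCCC) and at bases 14 to 23 after it (GGGGCCCTCC). These matches do not overlap each other. The STAT motif TTCNNNGAA was not found in either window, and the Il6st window held none of the 3 motifs. Of all promoters, 8.86% held the ETS core, 5.89% the NF-kB consensus and 8.30% the STAT motif. The promoter of Il6ra (chromosome 3) was also found in the RefSeq table and held 25 CG dinucleotides and none of the 3 motifs.

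Il27ra (ENSMUSG00000005465, GRCm38 chromosome 8, 84030294 to 84042589, reverse strand) encodes the chain that gives the interleukin 27 receptor its specificity. It was the most abundant member per length, with a mean of 43.0 FPKM over all libraries, against 28.4 FPKM for Ebi3. Its level was 44.38, 37.98, 38.60, 46.58 and 28.32 FPKM in the libraries labelled aged Thbs1 knockout. The aged controls had 59.40, 65.60, 62.64, 44.47 and 40.00 FPKM. The young controls had 32.02, 35.74, 35.28, 35.51 and 38.59 FPKM. All aged controls lay above all young controls, the nearest libraries by 1.41 FPKM, and the libraries labelled knockout overlapped both groups.

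Il27ra averaged 54.4 ± 11.4 FPKM in aged controls and 35.4 ± 2.33 FPKM in young controls (SD, n = 5 each), a log2 difference of 0.58 (SE 0.15, 95% confidence interval 0.26 to 0.91, limma adjusted p = 0.0373). The call was lost without any 1 young control and without aged control 1, 2 or 3, with log2 differences of 0.51 to 0.68 and limma adjusted p up to 0.128 over all 15 omissions of a library. It was also lost with no filter on low values (limma adjusted p = 0.0591) and on recovered reads (0.0735), and grouped by the sample descriptions the difference was -0.35 (limma adjusted p = 0.921). In the libraries labelled knockout, at 39.2 ± 7.10 FPKM, the difference from aged controls was -0.46 (95% confidence interval -0.78 to -0.13), and limma gave no call (adjusted p = 0.18), while the exact two-sided permutation p was 0.0476, unadjusted. Against young controls it was 0.12 (95% confidence interval -0.20 to 0.45, limma adjusted p = 0.637). In order of level the aged controls came first, and the libraries labelled knockout and the young controls did not differ beyond their spread.

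The aged controls fell into 3 male libraries with 59.40 to 65.60 FPKM of Il27ra and 2 female libraries with 40.00 and 44.47 FPKM. Il12rb1 was also lower in the 2 female aged controls, at 4.50 and 5.48 FPKM, than in the 3 male ones, at 7.75 to 9.66 FPKM. The difference of Il27ra between aged and young controls was 0.21 among females and 0.87 among males, and the interaction of group and sex was -0.66 (limma adjusted p = 0.523). For Ebi3, the difference between libraries labelled knockout and aged controls was 0.93 among females and 1.42 among males, an interaction of -0.49 (limma adjusted p = 0.999). Its level in the libraries labelled knockout was 34.26 and 35.31 FPKM in males and 20.58 to 25.82 FPKM in females. By limma no gene of the 11345 had a called interaction in any of the 3 comparisons, so these differences by sex did not pass the correction. An unadjusted limma p under 0.05 was found for 377, 998 and 861 genes (in libraries labelled knockout against aged controls, aged against young controls and libraries labelled knockout against young controls). Chance alone gives a share of about 0.05. The first count is below that share, and the second and the third are above it. The unadjusted limma p of the interaction was 0.021 for Il27ra in aged against young controls. It was 0.0298 for Ebi3 in libraries labelled knockout against aged controls. In a fit of sex with the groups kept, 1468 of the 11345 genes were called for sex. None of the tested members was, with females minus males at -0.25 for Ebi3 (limma adjusted p = 0.0972) and -0.36 for Il12rb1 (limma adjusted p = 0.0874). Ebi3 was nonetheless lowest in aged controls, and highest in young controls, within the males and within the females.

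Il12rb1 (ENSMUSG00000000791, GRCm38 chromosome 8, 70808449 to 70821424) had 6.59, 4.53, 5.27, 5.49 and 3.29 FPKM in the libraries labelled aged Thbs1 knockout, 8.72, 7.75, 9.66, 5.48 and 4.50 FPKM in aged controls and 6.50, 6.52, 5.35, 4.92 and 6.94 FPKM in young controls. The 3 groups overlapped. Its log2 difference was -0.43 for libraries labelled knockout against aged controls (95% confidence interval -0.83 to -0.02, limma adjusted p = 0.353). It was 0.19 for aged against young controls (-0.22 to 0.59, limma adjusted p = 0.584) and -0.24 for libraries labelled knockout against young controls (-0.65 to 0.17, limma adjusted p = 0.452). Without the 2 female aged controls, left out after their values were seen, the first difference was -0.71 and passed the test (limma adjusted p = 0.0414), and that of Il27ra was -0.68 (limma adjusted p = 0.0165).

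Il6st (ENSMUSG00000021756, GRCm38 chromosome 13, 112464070 to 112510086), the shared gp130 chain, had 4.43, 2.76, 5.18, 8.01 and 3.48 FPKM in the libraries labelled aged Thbs1 knockout, 5.66, 6.77, 5.69, 8.33 and 6.24 FPKM in aged controls and 6.31, 4.17, 5.13, 4.64 and 5.14 FPKM in young controls. The libraries labelled knockout held the lowest value of all 15 as well as the second highest, and their SD of 2.03 FPKM exceeded that of aged controls (1.10 FPKM) and young controls (0.797 FPKM). Its log2 differences were -0.44 against aged controls (95% confidence interval -0.85 to -0.02, limma adjusted p = 0.349), 0.31 for aged against young controls (-0.11 to 0.72, limma adjusted p = 0.376) and -0.13 against young controls (-0.55 to 0.28, limma adjusted p = 0.699). Alone, the second of these reached an exact two-sided permutation p of 0.0476, unadjusted. The sign of the last difference turned without replicate 2 of the libraries labelled knockout, to 0.00692.

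Il6ra (ENSMUSG00000027947, GRCm38 chromosome 3, 89864059 to 89913196), which encodes the chain that binds interleukin 6, was the least abundant member per length. It had 0.61, 1.53, 0.98, 1.35 and 0.74 FPKM in the libraries labelled aged Thbs1 knockout, 0.61, 0.50, 0.40, 0.88 and 0.91 FPKM in aged controls and 1.17, 0.74, 0.83, 0.96 and 0.79 FPKM in young controls. Its mean of 0.867 FPKM over all libraries was under the minimum of 1 FPKM for the test across genes, and its ranges overlapped in every comparison. Its log2 differences were 0.29, -0.20 and 0.09 in the 3 comparisons, in the order given for Il6st, with exact two-sided permutation p of 0.111, 0.111 and 0.524, unadjusted. At 60 to 319 reads per library, its level rested on fewer reads than that of any other receptor gene among the members.

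Of the 5 members, 4 passed the filter on low values and were tested in each comparison. In libraries labelled knockout against aged controls, 1 of the 4 was called, Ebi3, which was higher; of all 11345 genes tested 1.55% were called, 0.361% higher and 1.19% lower. In aged against young controls 2 of the 4 were called, Il27ra higher and Ebi3 lower, beside 4.42% of all genes, 3.18% higher and 1.23% lower. In libraries labelled knockout against young controls 1 of the 4 was called, Ebi3, which was lower, beside 1.63% of all genes, 1.01% higher and 0.617% lower. The ranges of the compared groups did not overlap for Ebi3 in any of the 3 comparisons nor for Il27ra in aged against young controls. Over all tested genes the ranges did not overlap for 2.34%, 7.16% and 4.50% in libraries labelled knockout against aged controls, aged against young controls and libraries labelled knockout against young controls.

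**Figure D2:**
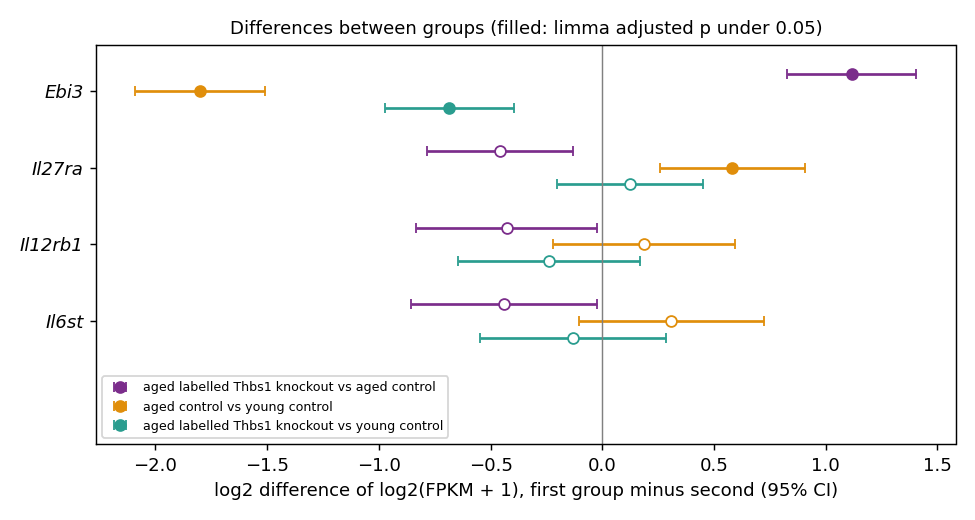
Difference in log2(FPKM + 1), first group minus second, with its 95% confidence interval from limma for the 4 tested members in the 3 comparisons. Filled points have a limma adjusted p under 0.05. The Ebi3 points lie at 1.12, -1.80 and -0.68, and of the receptor genes only Il27ra in aged against young controls (0.58) is filled.

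The ligand subunits that Ebi3 can pair with were also measured. Il27, which encodes the helical subunit of interleukin 27, had 3.46, 4.78, 3.5, 3.12 and 4.72 FPKM in the libraries labelled knockout, 5.91, 9.88, 7.11, 2.95 and 4.91 FPKM in aged controls and 3.59, 4.77, 3.05, 4.30 and 3.55 FPKM in young controls. Il12a, whose product pairs with Ebi3 in interleukin 35, had 11.12, 13.55, 16.47, 12.16 and 12.57 FPKM in the libraries labelled knockout, 23.19, 19.60, 19.42, 15.26 and 38.33 FPKM in aged controls and 16.39, 21.48, 18.60, 19.62 and 16.46 FPKM in young controls. Both genes thus had their highest single values in aged controls, the group in which Ebi3 was lowest. Il27 also had its lowest single value there, 2.95 FPKM. For both genes the aged controls overlapped each of the other groups. The log2 differences between libraries labelled knockout and aged controls were -0.48 for Il27 (limma adjusted p = 0.355) and -0.71 for Il12a (limma adjusted p = 0.0659), and neither passed the test. Between aged and young controls they were 0.49 for Il27 (limma adjusted p = 0.213) and 0.25 for Il12a (limma adjusted p = 0.449).

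Of 12 other ligand subunit genes of the family, 10 were in the table and 5 were tested. Ctf1, which encodes cardiotrophin 1, a cytokine that signals through gp130, was the only one called: it averaged 19.8 ± 5.33 FPKM in aged controls and 11.1 ± 1.12 FPKM in young controls (SD, n = 5 each; log2 difference 0.75, limma adjusted p = 0.0373). This call was lost without aged control 1, 2 or 3 or young control 1, 3, 4 or 5 (log2 differences of 0.62 to 0.85 over all omissions), and also with no filter (limma adjusted p = 0.0665), equal medians (0.0513) or recovered reads (0.0583). In the libraries labelled knockout Ctf1 averaged 15.4 ± 5.02 FPKM, which differed from neither control group by the test (limma adjusted p = 0.452 and 0.27). The gene of interleukin 6 itself averaged 0.076 FPKM in the libraries labelled knockout, 0.098 FPKM in aged controls and 0.03 FPKM in young controls, from at most 9 reads per library.

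Of 7 other receptor genes of the family, 5 were in the table and only Il11ra1, the interleukin 11 receptor gene, was tested. It averaged 36.8 ± 11.3 FPKM in the libraries labelled knockout, 38.0 ± 9.68 FPKM in aged controls and 32.6 ± 1.30 FPKM in young controls, with limma adjusted p of 0.932, 0.607 and 0.72 in the 3 comparisons. Il12rb2, the partner of Il12rb1 in the interleukin 12 receptor, was below the filter. It had 0.52, 0.15, 1.16, 1.29 and 0.15 FPKM in the libraries labelled knockout, 0.26, 0.45, 0.43, 0.46 and 0.55 FPKM in aged controls and 1.93, 0.63, 1.69, 2.38 and 1.85 FPKM in young controls, so all aged controls lay below all young controls. In this comparison the ranges did not overlap for 7.16% of the genes that passed the filter. With no filter on low values the difference of Il12rb2 between aged and young controls was -0.88 (limma adjusted p = 0.0437). That fit called 468 of 20678 genes in this comparison. Osmr, the oncostatin M receptor gene, was also below the filter. It averaged 0.38 FPKM in aged controls, 0.022 FPKM in young controls and 0.152 FPKM in the libraries labelled knockout. In the same fit with no filter, its difference between aged and young controls was 0.43 (limma adjusted p = 0.00147).

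**Figure D3:**
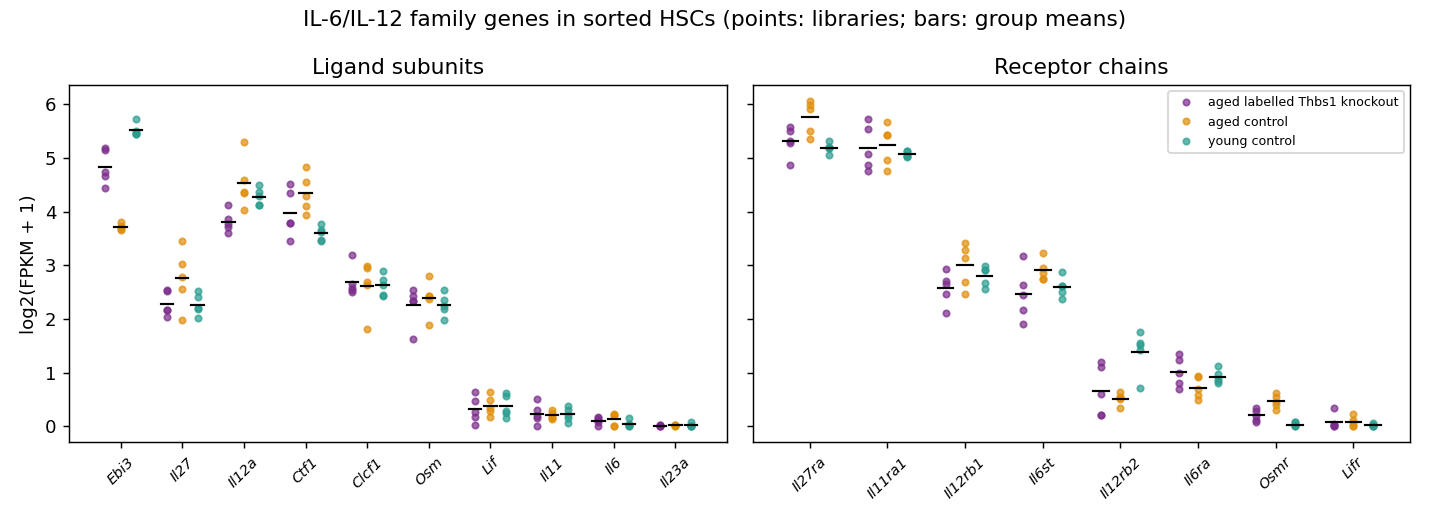
Level as log2(FPKM + 1) of the ligand subunit genes and receptor genes of the family in each library, with libraries labelled aged Thbs1 knockout, aged controls and young controls from left to right for every gene and a bar at each group mean. Il27ra and Il11ra1 are the most abundant of these receptor genes, Il6 and Il23a lie near 0, and the 3 groups of Ebi3 stand apart from each other.

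Over the wider pathway, 61 genes of 7 lists were tested. The lists cover the receptors and ligands above, JAK kinases and STAT factors, feedback inhibitors, STAT target genes, sheddases and chaperones, and other class I cytokine receptors. They were chosen with earlier results of these data known, so the shares below describe the lists and are no test of the pathway. In libraries labelled knockout against aged controls 8 of the 61 (13.1%) were called and all 8 were lower, beside the 1.19% of all genes called lower. The median log2 difference was -0.26 over the 61 genes and -0.03 over all genes tested. In aged against young controls 6 (9.84%) were called and all 6 were higher, beside 3.18% of all genes, with a median of 0.09 over the 61 genes and -0.02 over all. In libraries labelled knockout against young controls 1 (1.64%) was called, higher, a share near the 1.63% called over all genes, with a median of -0.22 over the 61 genes and -0.06 over all. The first count depended on the libraries: without replicates 2 and 5 of the libraries labelled knockout, 5 of the 61 were lower and 1 was higher, with a median of -0.08. Over all 11345 genes, that fit called 143 lower and 41 higher in the same comparison. In females only 0 of the 61 were called in that comparison, with a median of -0.21, beside only 10 of all 11345 genes. Grouped by the sample descriptions 0 of the 61 were called in each comparison, beside 0, 0 and 15 of all 11345 genes in the order above.

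Socs3 encodes the feedback inhibitor that binds gp130 and blocks JAK kinases. It had 4.63, 3.89, 4.62, 5.86 and 4.47 FPKM in the libraries labelled knockout, 25.20, 17.83, 18.18, 20.22 and 11.34 FPKM in aged controls and 2.16, 2.72, 2.04, 3.13 and 1.96 FPKM in young controls. Its order of groups was the inverse of that of Ebi3, and again no group overlapped another. The log2 difference was -1.75 between libraries labelled knockout and aged controls (SE 0.18) and 2.49 between aged and young controls, and both were called by limma. Against young controls the libraries labelled knockout were higher by 0.75 (limma adjusted p = 0.0413). That call was lost without young control 1, 2, 3 or 5, aged control 2 or 3, or replicate 1 or 5 of the libraries labelled knockout, with differences of 0.68 to 0.82 over all omissions. It was also lost with no filter (limma adjusted p = 0.0703), on recovered reads (0.0956) and without replicates 2 and 5 together (0.064).

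Of 10 feedback inhibitors and phosphatases, Socs1, another JAK inhibitor, was the other gene called, with 23.0 ± 5.23 FPKM in aged controls and 12.2 ± 3.40 FPKM in young controls (log2 difference 0.87, limma adjusted p = 0.0175). Its call was lost without aged control 1, 2 or 3 or young control 1, 3 or 5 (log2 differences of 0.79 to 0.99 over all omissions). In the libraries labelled knockout Socs1 averaged 16.3 ± 4.38 FPKM, a difference of -0.48 from aged controls that did not pass (limma adjusted p = 0.32). Of the 11 JAK and STAT genes, Stat3, the main STAT factor of gp130 signaling, was called lower in the libraries labelled knockout, with 38.4 ± 6.23 FPKM against 55.8 ± 4.32 FPKM in aged controls (log2 difference -0.54, limma adjusted p = 0.0403). This call was lost without aged control 1, 2, 3 or 4, young control 1, 2, 3 or 4, or replicate 2 or 5 of the libraries labelled knockout (log2 differences of -0.60 to -0.47 over all omissions). Without replicates 2 and 5 together the difference of Stat3 was -0.37 (limma adjusted p = 0.139), and its call was also lost with no filter, quantile normalization, equal medians, recovered reads, no intensity trend or only the 2 groups in the fit (limma adjusted p of 0.0545 to 0.153).

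Of 15 tested STAT target genes, 3 were lower in libraries labelled knockout than in aged controls, beside 1.19% of all genes called lower. In aged against young controls 3 were higher, beside 3.18% of all genes called higher. Bcl3, a regulator of NF-kB dimers, had 10.87, 8.83, 10.68, 13.03 and 12.45 FPKM in the libraries labelled knockout, 30.24, 28.35, 30.38, 25.28 and 20.21 FPKM in aged controls and 8.71, 8.69, 8.5, 13.84 and 9.18 FPKM in young controls. All aged controls stood above every other library, and the libraries labelled knockout overlapped the young controls. Its log2 differences were -1.19 against aged controls (SE 0.16) and 1.38 for aged against young controls, both called by limma, and 0.19 against young controls (limma adjusted p = 0.47). Cebpd, a transcription factor gene of the acute phase response, averaged 1.5 ± 0.530 FPKM in the libraries labelled knockout, 4.45 ± 1.70 FPKM in aged controls and 0.776 ± 0.146 FPKM in young controls. It was lower than in aged controls by a log2 difference of -1.08 (limma adjusted p = 0.0169, lost without aged control 1 or 2, with differences of -1.31 to -0.97 over all omissions), and it was higher in aged than in young controls by 1.55.

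Igtp, an interferon-induced GTPase gene, averaged 42.3 ± 9.29 FPKM in the libraries labelled knockout and 81.8 ± 26.0 FPKM in aged controls (log2 difference -0.92, limma adjusted p = 0.0116). With only the 2 groups in the fit the call of Igtp was lost (limma adjusted p = 0.0856), as was that of Cebpd (0.0976). Cebpb, a related C/EBP factor gene, averaged 34.1 ± 9.04 FPKM in aged controls and 15.8 ± 3.27 FPKM in young controls (log2 difference 1.03, limma adjusted p = 0.0296). That call was lost without aged control 1, 2, 3 or 4 or young control 1, 3, 4 or 5 (differences of 0.96 to 1.24 over all omissions), and also with no filter (limma adjusted p = 0.0612) or on recovered reads (0.0536). The other 12 tested targets were not called in libraries labelled knockout against aged controls, among them Pim1, a survival kinase gene, at 0.03.

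Of 6 sheddase and chaperone genes, Calr, which encodes the folding chaperone calreticulin, was lower in libraries labelled knockout, with 233 ± 33.0 FPKM against 331 ± 24.1 FPKM in aged controls (log2 difference -0.51, limma adjusted p = 0.0478). This call held in 2 of 15 omissions of a library, those of aged Thbs1 knockout replicates 3 and 5, with differences of -0.57 to -0.44. It was also lost with no filter, quantile normalization, equal medians, only the 2 groups in the fit or without replicates 2 and 5 together (limma adjusted p of 0.0548 to 0.225). Of 13 tested class I receptors of other cytokines, Il2rg and Csf3r were lower in libraries labelled knockout, beside 1.19% of all genes called lower. Il2rg, the common gamma chain gene, averaged 20.6 ± 3.07 FPKM in libraries labelled knockout and 33.1 ± 5.56 FPKM in aged controls (log2 difference -0.65, limma adjusted p = 0.019, lost without aged control 1 or 2, with differences of -0.75 to -0.60 over all omissions). The call of Il2rg was also lost with equal medians (limma adjusted p = 0.081) and only the 2 groups in the fit (0.103). Csf3r, the G-CSF receptor gene, averaged 30.2 ± 11.5 FPKM in libraries labelled knockout and 60.6 ± 16.8 FPKM in aged controls (log2 difference -1.01, limma adjusted p = 0.0322). Its call was lost without aged control 1, 2 or 3 or replicate 2, 4 or 5 of the libraries labelled knockout, with differences of -1.19 to -0.85 over all omissions. Without replicates 2 and 5 together the difference of Csf3r was -0.65 (limma adjusted p = 0.171), and the call was also lost with no filter (0.0693), on recovered reads (0.0532) and with only the 2 groups in the fit (0.147).

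The 6 genes whose level followed that of Ebi3 most closely over the 15 libraries, by Pearson's r of log2(FPKM + 1) among 9695 ranked genes, were Kcnk12 (r = 0.951), Ctla2a (0.945), Mgst1 (0.928), Ncf1 (0.912), Flt3 (0.908) and Tnfrsf13c (0.888). The 3 most opposed were Ehd3 (r = -0.956), Selp (-0.956) and Cnksr1 (-0.953). Ctla2a encodes a cathepsin inhibitor, Mgst1 a microsomal glutathione transferase, Ncf1 a subunit of the phagocyte NADPH oxidase, Tnfrsf13c the BAFF receptor, Selp the adhesion molecule P-selectin and Cnksr1 a signaling scaffold. These values of r include the differences between groups. With every library taken as a deviation from its group mean, r was 0.776 for Kcnk12, 0.561 for Flt3, 0.396 for Mgst1, -0.370 for Ehd3 and -0.692 for Selp. Ebi3 spread most in the libraries labelled knockout (SD 6.45 FPKM, against 0.561 in aged and 3.96 in young controls). There the male libraries lay above the female ones for Ebi3, Kcnk12 and Flt3. The r of deviations thus includes this split by sex or replicate number. Over the 15 libraries, without taking deviations, Il27ra had r = -0.678 with Ebi3, Il6st -0.497 and Il12rb1 -0.235, and Socs3 had -0.945. These are descriptions over libraries that share groups and a kit.

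Kcnk12, a potassium channel gene, had 5.21, 6.84, 3.33, 2.59 and 3.63 FPKM in the libraries labelled knockout, 2.18, 2.12, 2.91, 1.76 and 1.70 FPKM in aged controls and 8.35, 9.67, 6.99, 7.06 and 8.66 FPKM in young controls. Flt3, the cytokine receptor gene that marks multipotent and lymphoid-primed progenitors, had 8.15, 10.75, 5.87, 3.72 and 2.33 FPKM in the libraries labelled knockout, 2.38, 2.56, 2.07, 2.68 and 2.06 FPKM in aged controls and 9.07, 8.57, 9.77, 9.10 and 11.02 FPKM in young controls. For both genes the libraries labelled knockout spread from the level of aged controls towards that of young controls, whereas for Ebi3 they lay between the groups. Ehd3, an endocytic trafficking gene, was opposite, at 28.1 ± 7.11 FPKM in libraries labelled knockout, 75.3 ± 11.6 FPKM in aged controls and 17.3 ± 1.65 FPKM in young controls (SD, n = 5 each).

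The summed level of the 5 measured markers of multipotent and lymphoid-primed progenitors, of which Flt3 is 1, ran from 21.5 to 49.5 FPKM in the libraries labelled knockout, 20.9 to 33.6 FPKM in aged controls and 53.4 to 68.7 FPKM in young controls. The libraries labelled knockout thus overlapped the aged controls, and both lay below the young controls. Dntt and Satb1, lymphoid genes of the list, stayed under 1 FPKM on average in each group. The summed level of the macrophage and dendritic cell markers ran from 7.43 to 14.5 FPKM in the libraries labelled knockout, 7.63 to 14.0 FPKM in aged controls and 9.35 to 14.6 FPKM in young controls, ranges that overlap. The summed levels of HSC markers and of T and NK cell markers did not overlap between the libraries labelled knockout and aged controls. The 11 HSC markers summed to 713 to 957 FPKM in libraries labelled knockout, 1014 to 1150 FPKM in aged controls and 860 to 926 FPKM in young controls. The 4 measured T and NK cell markers summed to 29.3 to 61.6 FPKM in libraries labelled knockout, 67.2 to 135 FPKM in aged controls and 53.8 to 105 FPKM in young controls, with Cd3d and Cd4 under 1 FPKM on average in each group. The 6 megakaryocyte and platelet markers summed to 204 to 359 FPKM in libraries labelled knockout, 333 to 2012 FPKM in aged controls and 399 to 509 FPKM in young controls. For this list the libraries labelled knockout overlapped the aged controls. The part of these cell types in the differences of Ebi3 and of the pathway genes was not tested.

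**Figure D4:**
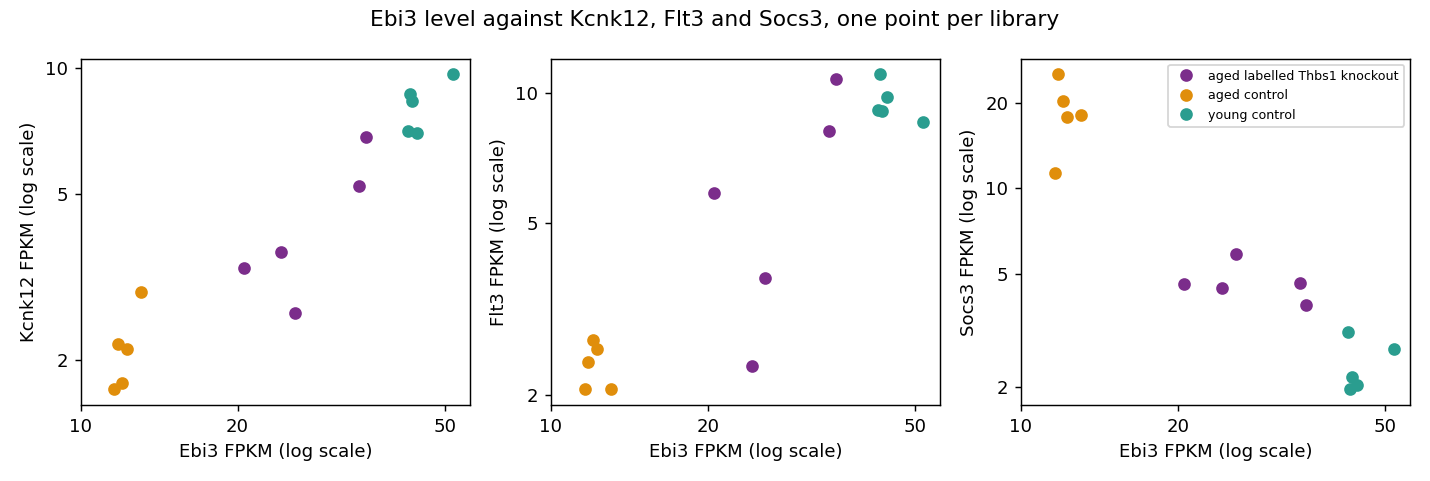
Level of Kcnk12, Flt3 and Socs3 (vertical, FPKM, log scale) against Ebi3 (horizontal, FPKM, log scale), with 1 point per library. Kcnk12 and Flt3 are high in the young controls, where Ebi3 is high, and Socs3 is highest in the aged controls, at 11.34 to 25.20 FPKM, where Ebi3 is lowest.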

How the data were processed

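Bulk RNA of sorted mouse HSCs was sequenced in 15 libraries. The deposited table, made by the authors, gives FPKM (2 decimals) for 20696 genes. Per the submitters' processing notes, FastQC 0.11.5, STAR and edgeR were run on build GRCm38 (mm10), with settings that no source used here states. Columns were grouped by the sample titles in the table, and sex was read from the library names, which matched the sex-linked genes in 15 of 15 libraries.

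Groups were compared on log2(FPKM + 1) with limma 3.58.1 in R 4.3.3, with an intensity trend, all 15 libraries in 1 fit and no covariate. A mean FPKM of 1 or more was required, which left 11345 genes; they were tested two-sided and called at a Benjamini-Hochberg adjusted p under 0.05 over all of them. Members were also tested 1 by 1 with an exact two-sided permutation test. Gene positions and exonic lengths came from GENCODE M21, and promoters from RefSeq. The promoter table held 3 of the 5 members. Reads per gene were recovered from FPKM and exonic length: in held-out genes of up to 500 bases, 97.6% to 98.2% of values came out whole within a tolerance of 0.1 reads. Such depths speak to counting error only.

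The script was tested on simulated data for libraries labelled knockout against aged controls. Of 98 genes with a simulated log2 change of 1 in size, 87.8% were recovered, and the median estimate was 0.80. Of 97 genes with a change of 2, 100% were recovered. Among the unchanged genes there were 20 false calls. The members, the lists and the rule for named genes were chosen with earlier results of these data known. The rule took the members, Thbs1, every called gene of the 7 pathway lists and the 6 genes most like and 3 most unlike Ebi3. Outside it, other family genes, Gm16712, Pim1, Dntt and Satb1 were named after their values were seen. Alternatives covered the pseudocount, filter, scaling, recovered reads, covariates, pairing, grouping and omitted libraries. Some single genes of the lists are not reported here.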

Additional observations from a re-analysis of the deposited data

Results flagged for a closer look

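Of 48 sets of 5 libraries examined (the members and the called pathway genes in each group), 3 held a library that stood far from the other 4, and chance gives about 1 in 20. Ebi3 was 51.88 FPKM in young control 2, a male library, with the next highest young control at 44.20 FPKM. This library is the highest of all 15, so it widens the range of young controls away from the other groups. Bcl3 was 13.84 FPKM in young control 4, with the next highest at 9.18 FPKM; it still lay below every aged control. Cebpb was 18.24 FPKM in aged control 5, a female library, with the next lowest aged control at 35.60 FPKM.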

How the results depend on the processing

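Ebi3 kept its direction in all 3 comparisons under every alternative except the grouping of columns by the sample descriptions, and it kept its call against aged controls, and for aged against young controls, in each of the 15 omissions of 1 library (log2 differences of 1.03 to 1.22 and -1.82 to -1.75). Between libraries labelled knockout and young controls its difference lost the call after scaling to equal medians (-0.58), in males only (-0.43) and in females only (-0.85), and between libraries labelled knockout and aged controls in females only (0.93). Il27ra in aged against young controls lost its call with no filter (0.58), on recovered reads (0.54) and in females only (0.21), and lay between 0.51 and 0.68 when 1 library was left out. The cause was not tested. The exact permutation test alone gave an unadjusted p under 0.05 for Il27ra in libraries labelled knockout against aged controls (-0.46) and for Il6st in aged against young controls (0.31). Without the female aged controls 4 and 5, which was chosen after seeing the data as were the fits within a sex, Il27ra (-0.68) and Il12rb1 (-0.71) were called lower in libraries labelled knockout than in aged controls.

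Differences that were not called turned their sign in 7 cases outside the grouping by descriptions. Il6st in libraries labelled knockout against young controls was 0.0776 in females only, 0.15 without replicates 2 and 5 of the libraries labelled knockout, and between -0.31 and 0.00692 when 1 library was left out. Il12rb1 in aged against young controls was -0.16 in females only. Stat3 in libraries labelled knockout against young controls was 0.0271 after scaling to equal medians and 0.0817 without replicates 2 and 5, and Csf3r was 0.0521 without them.

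Grouped by the sample descriptions, 0, 0 and 15 genes were called in libraries labelled knockout against aged controls, aged against young controls and libraries labelled knockout against young controls. At an unadjusted limma p under 0.05 there were 731, 642 and 1645. Ebi3 was then -1.10, 0.86 and -0.24 in these comparisons, Il27ra 0.0302, -0.35 and -0.32, and Il6st 0.39, -0.32 and 0.073. In aged against young controls Il12rb1 was -0.41 and Il6ra 0.21. For libraries labelled knockout against aged controls the pathway genes that turned were Socs3 (1.15), Bcl3 (0.58), Igtp (0.51), Cebpd (0.48), Cebpb (0.46), Socs1 (0.23), Ctf1 (0.21), Stat3 (0.19), Calr (0.16) and Csf3r (0.0195). For aged against young controls they were Socs3 (-1.35), Cebpd (-0.93), Bcl3 (-0.80), Csf3r (-0.68), Cebpb (-0.62), Igtp (-0.58), Socs1 (-0.56), Il2rg (-0.48), Ctf1 (-0.47), Calr (-0.27) and Stat3 (-0.25). For libraries labelled knockout against young controls they were Cebpd (-0.45), Socs1 (-0.32), Ctf1 (-0.26), Bcl3 (-0.23), Socs3 (-0.20) and Cebpb (-0.16).

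The number of genes called moved more than the members did. Against 176, 501 and 185 in the 3 comparisons, females only gave 10, 27 and 11. Males only gave 1093 for aged against young controls and 875 for libraries labelled knockout against young controls. Without aged controls 4 and 5 there were 440, 1991 and 291. With only the 2 groups compared in the fit there were 77 and 1011 in the first and the second comparison, with sex as a covariate 429 in the third, and without replicates 2 and 5 of the libraries labelled knockout 1030 in the second. Recovered reads (limma-voom) gave 137, 464 and 157. Leaving out 1 library gave 95 to 229, 311 to 943 and 98 to 676. Scaling to equal medians moved the median of all genes in libraries labelled knockout against young controls to 0.05, against -0.06 as deposited, and the split to 166 higher and 53 lower, against 115 higher and 70 lower.

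Replicate numbers did not pair the libraries: the 15 correlations of deviations between libraries with the same number ran from -0.455 to 0.527, 6 were over 0.1, and 3 of 15 libraries correlated best with their own number. With the replicate number as a block 152, 499 and 158 genes were called, and the limma adjusted p of Ebi3 was 0.00062, 3.59e-06 and 0.0211 and that of Il27ra in aged against young controls 0.0477. Among the pathway genes Stat3 and Calr lost their calls under the block. In females only, all 8 pathway calls in libraries labelled knockout against aged controls and 5 of the 6 in aged against young controls were lost, Socs3 being the exception, as was that of Socs3 in libraries labelled knockout against young controls; in males only, Stat3, Calr and Il2rg (against aged controls) and Socs3 (against young controls) lost theirs, as did Stat3 and Calr without aged controls 4 and 5. By Spearman correlation 4 of the 6 genes most like Ebi3 were shared. Il6ra had no limma value wherever the filter was kept. Depth limits what can be said of Il6, with at most 9 reads per library, and of Il23a, with at most 3.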
